A study of Mus musculus with 23 samples.

Results

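The 7 genes described here make the MHC class II antigen presentation machinery of the mouse and were taken by symbol from the 18876 genes of the deposited count table. They are the class II chains H2-Aa, H2-Ab1 and H2-Eb1, the invariant chain Cd74, the peptide loading subunits H2-DMa and H2-DMb1, and the transcriptional coactivator Ciita. RNA came from CD11b+ cells that were separated with magnetic beads from the bilateral hippocampus of female mice, 1 library for each of 23 samples. All mice carried Slc11a2 fl/fl and Cx3cr1Cre-ERT2+/- on a mixed 129S;C57BL/6J background, so the tamoxifen-dependent Cre was driven by the Cx3cr1 locus in every group, and were killed at 15 to 18 months of age. Slc11a2KD mice received 4 mg tamoxifen a day by gavage for 5 days at 5 to 6 months whereas Control mice were given the corn oil vehicle, and the drug and the knockdown cannot be told apart. Within each treatment, mice were hemizygous for the APP/PS1 amyloid transgenes or were their WT littermates. Control WT held 6 libraries, Control APP/PS1 held 7, Slc11a2KD WT held 5 and Slc11a2KD APP/PS1 held 5. The study left out 1 Control APP/PS1 library as an outlier, and library 0010, which its heat map does not show, is left out of the tests here, which leaves 22 libraries.

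The 22 libraries held 31128643 to 54872491 counts, and all 7 members passed the filter of 5 counts in at least 3 libraries. The members took 0.0498% to 0.305% of a library's counts. Counts of Slc11a2 itself, summed over the whole gene, were 35.1 ± 5.13 CPM (counts scaled by TMM library size; SD, n = 6) in Control WT, 34.2 ± 4.75 (n = 5) in Slc11a2KD WT, 43.2 ± 3.93 (n = 6) in Control APP/PS1 and 56.5 ± 13.5 (n = 5) in Slc11a2KD APP/PS1. Adjusted p was 1 in WT and 0.205 in APP/PS1 in edgeR's quasi-likelihood test, and since a count over the whole gene does not separate the floxed exons, which the study assayed by RT-qPCR, it does not check the knockdown. The microglial markers Tmem119 and P2ry12 had group means of 2177 to 4613 CPM and 2695 to 5490 CPM. Ttr, a choroid plexus transcript, reached at least 50 CPM in 8 libraries: Control WT 0012 and 0015, Slc11a2KD WT 0019 and 0022, and Slc11a2KD APP/PS1 0018, 0020, 0021 and 0023. The libraries carry numbers, with 5 to 17 all from Control and 1 to 4 and 18 to 23 all from Slc11a2KD mice, so the run of numbers and the treatment cannot be told apart between Control and Slc11a2KD.

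MHC class II molecules display peptides from engulfed material to CD4+ T cells. The alpha chain (H2-Aa) and a beta chain (H2-Ab1) pair to form I-A, and H2-Eb1 is the beta chain of I-E. Cd74 chaperones the new dimer and blocks its groove, cathepsins trim Cd74 to a short remnant, and the H2-DM heterodimer exchanges that remnant for peptide. Ciita binds no DNA by itself and is recruited by the RFX, CREB and NF-Y factors that occupy the X and Y boxes of class II promoters, and interferon gamma is its best known inducer. In the healthy brain, macrophages at the borders and in the choroid plexus carry more class II than parenchymal microglia.

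The promoters show what the class II chain genes share in sequence. They are given from the mouse genome GRCm39, the build of the counts, as the 110 bases that end just before the start of the Ensembl canonical transcript in GENCODE M39. Capitals mark the Y box, CTGATTGG, and a part of the X box, GNNACNGAT, each searched on both strands.
H2-Aa: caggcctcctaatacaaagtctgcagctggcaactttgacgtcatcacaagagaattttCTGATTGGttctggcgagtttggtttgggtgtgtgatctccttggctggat
H2-Ab1: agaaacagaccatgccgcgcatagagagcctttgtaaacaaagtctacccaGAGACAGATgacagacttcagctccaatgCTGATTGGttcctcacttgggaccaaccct
H2-Eb1: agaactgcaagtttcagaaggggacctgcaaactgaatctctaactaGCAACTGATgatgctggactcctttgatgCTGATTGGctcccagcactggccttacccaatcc
H2-DMa: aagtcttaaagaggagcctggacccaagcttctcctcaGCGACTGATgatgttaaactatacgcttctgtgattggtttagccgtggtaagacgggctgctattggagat
These stretches lie at chr17:34506798-34506907 on the minus strand for H2-Aa, and on the plus strand at chr17:34482073-34482182 for H2-Ab1, chr17:34524703-34524812 for H2-Eb1 and chr17:34354450-34354559 for H2-DMa.

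The 3 chain genes each held the Y box on their own strand, at -51 to -44 in H2-Aa, -30 to -23 in H2-Ab1 and -34 to -27 in H2-Eb1, where -1 is the last base before the transcript. H2-Ab1, H2-Eb1 and H2-DMa also held the X box part, at -59 to -51, -63 to -55 and -72 to -64. Over windows from 250 bases before to 50 bases after the start of 18730 genes of the table, 4.82% held the Y box letters, 6.86% the X box part and 0.486% both. In the same windows H2-DMb1 held the X box part only after its start, at 25 to 33, and Ciita held neither. The NF-Y core CCAAT, which lies inside the Y box on the other strand, was present in 37.8% of all windows, and in those of 5 members: H2-Aa, H2-Ab1, H2-Eb1, Cd74 and H2-DMa. The interferon-response letters TTCNNNGAA, present in 7.51% of all windows, were found in that of Ciita, at -33 to -25. A match is a run of letters and shows nothing of binding in these cells.

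Of the 7 genes, 5 lie within 197.1 kb of chromosome 17, at chr17:34338515-34535648. In order, these are H2-DMa (ENSMUSG00000037649, 34338515 to 34358958), H2-DMb1 (ENSMUSG00000079547, 34372046 to 34379204), H2-Ab1 (ENSMUSG00000073421, 34476663 to 34488393), H2-Aa (ENSMUSG00000036594, 34493404 to 34506798) and H2-Eb1 (ENSMUSG00000060586, 34504236 to 34535648). Ciita (ENSMUSG00000022504) lies at chr16:10297923-10347694. In the annotation used here H2-Aa and H2-Eb1 overlap by 2563 bases on opposite strands, and H2-DMa overlaps Brd2 on the other strand. The study counted reads on an earlier GENCODE release, in which these overlaps may differ. Whether the counting used strand is not given in the sources used here, so reads in these overlaps could count for either gene or for neither. H2-DMb1 has a near-identical neighbour, H2-DMb2, and its count depends on how reads shared by the 2 genes were treated.

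Levels were compared between genes per kb of canonical exon, since a longer transcript gives more reads. Over the 22 libraries H2-Aa stood at 214 ± 196 CPM per kb (SD), H2-Ab1 at 175 ± 139.5, H2-DMa at 173 ± 46.5, H2-DMb1 at 105 ± 24.6, Cd74 at 95.9 ± 73.1 and H2-Eb1 at 87.3 ± 86.9. Ciita was far below, at 0.160 ± 0.173 CPM per kb. Of neighbours among the first 6 in this order, H2-DMa and H2-DMb1 differed by more than the SD of either, and the others lay within their spread. The order differed between groups. In Control WT, H2-DMb1 was the last of these 6, at 94.2 ± 11.7 CPM per kb, below Cd74 at 155 ± 103 and H2-Eb1 at 130.4 ± 97.2 (n = 6), and it was also last in Slc11a2KD WT, at 91.7 CPM per kb. In Control APP/PS1 H2-DMa at 154 ± 30.1 and H2-DMb1 at 104 ± 9.29 CPM per kb (n = 6) stood above H2-Ab1 at 70.5 ± 28.9, H2-Aa at 65.0 ± 40.8, Cd74 at 50.3 ± 19.97 and H2-Eb1 at 20.5 ± 14.1.

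**Figure D1:**
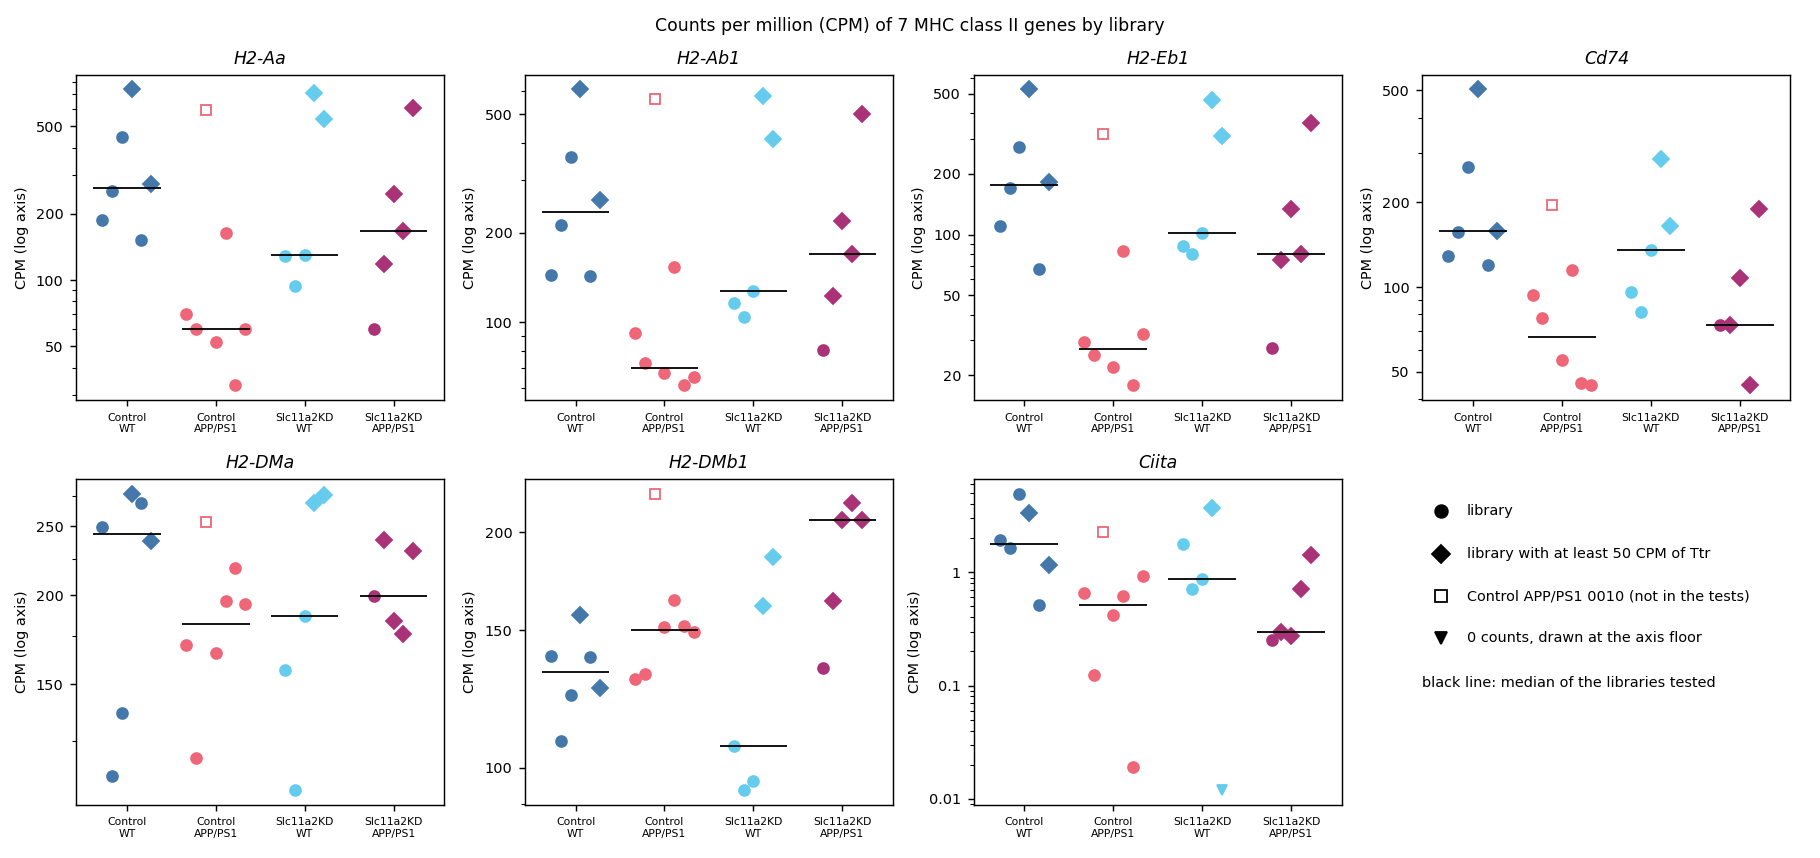
Each panel shows 1 gene in CPM on a log axis, with 1 point per library, the 4 groups side by side and a black line at the median of the libraries tested. H2-Aa, H2-Ab1, H2-Eb1 and Cd74 sit low in Control APP/PS1 apart from library 0010, diamonds (at least 50 CPM of Ttr) sit high in Slc11a2KD WT for the 3 chains, and Ciita had 0 counts in 1 library.

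The first comparison asked how class II expression differed between APP/PS1 and WT mice without knockdown. The 3 chains and the invariant chain were lower in Control APP/PS1 than in Control WT, by 1.63 to 2.67 on the log2 scale, while the peptide loading subunits were not called. In edgeR's quasi-likelihood test, adjusted over all 18759 genes at 0.05, 4 of 7 members were called, all lower, and 10.5% of all genes were called in either direction. The members' median log2 fold change was -1.75, against -0.02 over all genes tested.

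H2-Aa, the I-A alpha chain, ranged from 152 to 738 CPM in Control WT with a median of 263, and from 33.2 to 164 CPM in Control APP/PS1 with a median of 60.2. Its log2 fold change was -2.22 (SE 0.57, adjusted p = 0.0115). The groups met only at their edges: the Control APP/PS1 library 0013, at 164 CPM, lay above the lowest Control WT library, 0014, at 152 CPM, and the other 5 Control APP/PS1 libraries lay at 70.0 CPM or below.

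H2-Ab1, the I-A beta chain, ranged from 143 to 606 CPM in Control WT (median 234) and from 61.4 to 153 CPM in Control APP/PS1 (median 70.3). Its log2 fold change was -1.75 (SE 0.47, adjusted p = 0.0168). Library 0013 was again the highest of its group and the only library that reached into the Control WT range. H2-Eb1, the I-E beta chain, had the largest difference of the members, with 67.5 to 527 CPM in Control WT (median 176) and 17.8 to 82.6 CPM in Control APP/PS1 (median 27.1), a log2 fold change of -2.67 (SE 0.60, adjusted p = 0.00398). Its ranges overlapped through 0013, at 82.6 CPM, and 0014, at 67.5 CPM.

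Cd74, the invariant chain (ENSMUSG00000024610, chr18:60936899-60945731), ranged from 120 to 504 CPM in Control WT (median 158) and from 44.7 to 115 CPM in Control APP/PS1 (median 66.3). Its log2 fold change was -1.63 (SE 0.39, adjusted p = 0.0069). Of the 7 members, only Cd74 had groups that did not overlap, where 8.36% of all genes tested had groups that did not overlap in either direction.

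The peptide loading subunits followed another course. H2-DMa had a median of 244 CPM in Control WT, between 111 and 278, and of 182 CPM in Control APP/PS1, between 118 and 219, with a log2 fold change of -0.27 (95% interval -0.71 to 0.17). H2-DMb1 had a median of 133 CPM in Control WT, between 108 and 157, and of 150.3 CPM in Control APP/PS1, between 130 and 164, with a log2 fold change of 0.15 (95% interval -0.16 to 0.45). Neither was called (adjusted p = 0.534 and 0.653), and for both the libraries of the 2 groups were intermingled.

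Ciita, the coactivator, was near the limit of detection, with 0.511 to 4.96 CPM in Control WT (median 1.79) and 0.0191 to 0.922 CPM in Control APP/PS1 (median 0.514). Its log2 fold change was -2.30 (SE 0.88, adjusted p = 0.101), a size like that of the chains with a wider error. It was not called in edgeR with all 4 groups in the fit. It was called in edgeR with only the 2 compared groups in the fit (-2.29, adjusted p = 0.0374) and in DESeq2 (-2.33, adjusted p = 0.0279).

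The count of calls in this comparison rested on few libraries. With library 0010 kept, where 2129 of 18865 genes were called (11.3%), only Cd74 was called of the members (-1.30, adjusted p = 0.0341), and H2-Aa stood at -1.21 (adjusted p = 0.25), H2-Ab1 at -0.89 and H2-Eb1 at -1.56. Without the 2 Ttr-high Control WT libraries, 0012 and 0015, 1282 of 18562 genes were called (6.91%), of the members only H2-Eb1 (-2.16, adjusted p = 0.0313), with Cd74 at -1.22 (adjusted p = 0.0518) and H2-Aa at -1.83 (adjusted p = 0.0694). Without all 8 Ttr-high libraries 2507 of 17758 genes were called (14.1%), the same 4 members among them, with log2 fold changes of -1.81 for H2-Aa, -1.31 for H2-Ab1, -2.14 for H2-Eb1 and -1.21 for Cd74.

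Markers of several cell types moved with this difference, and in bulk RNA fewer cells of a type and less RNA per cell cannot be told apart. Of 6 microglial markers, 4 were called lower in Control APP/PS1: Tmem119 (-1.08), P2ry12 (-0.98), Cx3cr1 (-0.51) and Siglech (-0.47). Their sums were 31395 to 35492 CPM in Control WT and 22733 to 26563 CPM in Control APP/PS1. Of 8 markers of border-associated macrophages, the macrophages of meninges and vessels, 6 were called lower and 0 higher, and their summed level was 232 to 488 CPM in Control WT and 96.0 to 214 CPM in Control APP/PS1. Mrc1 averaged 99.5 CPM against 33.6 CPM and Pf4 45.7 against 13.1. Of 4 monocyte markers, 2 were called lower, with sums of 22.4 to 81.0 and 8.91 to 28.9 CPM. Of 8 choroid plexus epithelium markers, 6 were called lower, with sums of 1934 CPM in Control WT 0012, 999 CPM in 0015 and 1.09 to 5.34 CPM in the other 4, against 1.30 to 5.41 CPM in Control APP/PS1. The dendritic cell markers Xcr1 and Clec9a stayed below 1 CPM in every library, and no dendritic cell marker was called of 8. The sum of those 8 was 445 to 615 CPM in Control WT (median 507) and 313 to 489 CPM in Control APP/PS1 (median 397). Of 7 B cell markers analysed, 0 were called, and their median log2 fold change was -2.10. Their sum was 263 to 382 CPM in Control WT (median 306) and 324 to 407 CPM in Control APP/PS1 (median 365), so the sum moved against the median marker. The T cell markers analysed, 2 of 4 listed, summed to under 1 CPM. Of 8 genes of disease-associated microglia, 7 were called higher. The part of these markers in the class II result was not tested.

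**Figure D2:**
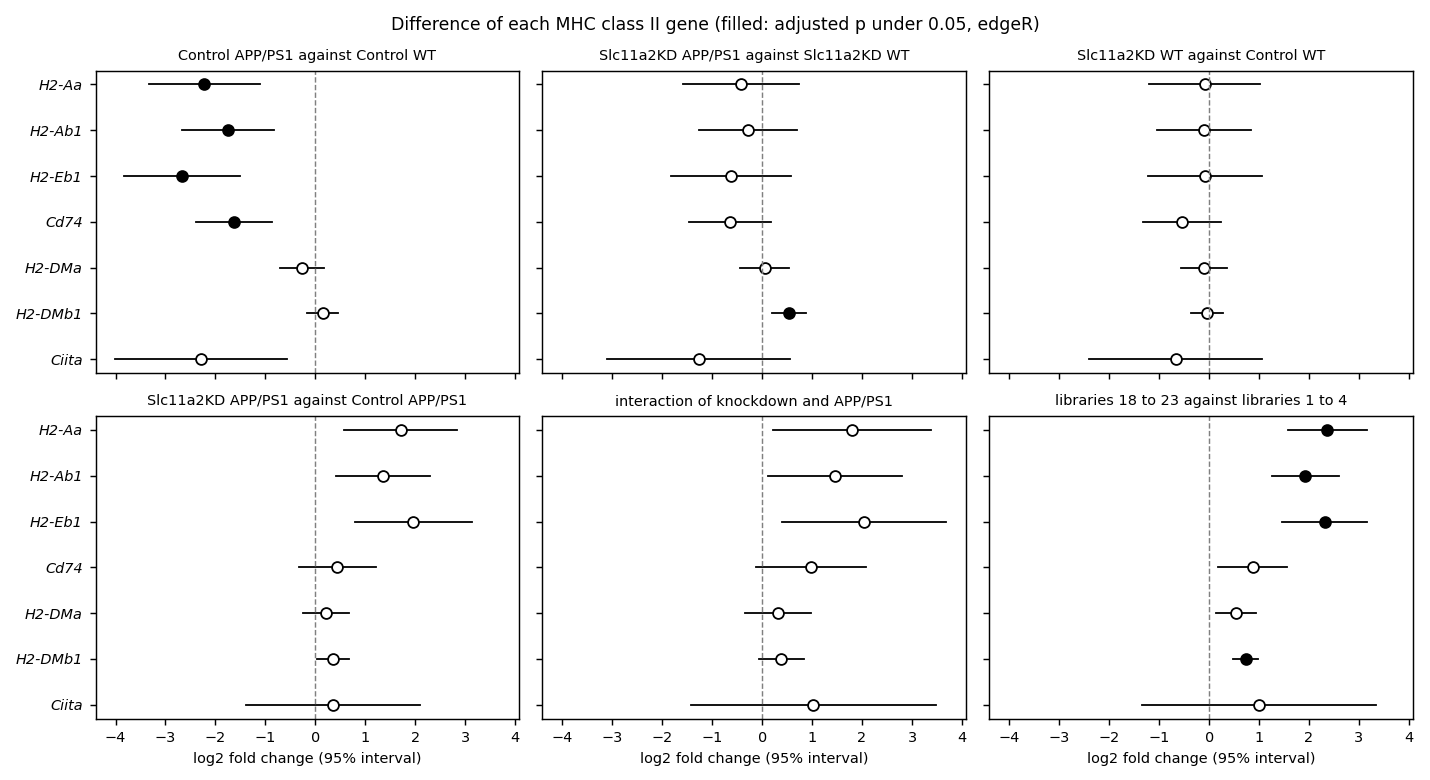
Each panel shows, for 1 comparison, the log2 fold change of the 7 genes with its 95% interval, and filled points mark an adjusted p under 0.05. The chains and Cd74 lie below 0 in the Control comparison, only H2-DMb1 is filled in the Slc11a2KD genotype comparison, and the chains lie near 2 between the runs of library numbers.

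The same genotype difference was then asked of mice given tamoxifen. In Slc11a2KD mice, 1 of 7 members was called between APP/PS1 and WT, where 16.2% of all genes were called in either direction. This was H2-DMb1, a loading subunit, which was higher in APP/PS1. Its CPM were 107, 93.8, 96.1, 161 and 186 in Slc11a2KD WT (libraries 0001, 0002, 0003, 0019 and 0022) and 134, 164, 207, 218 and 208 in Slc11a2KD APP/PS1 (0004, 0018, 0020, 0021 and 0023). The log2 fold change was 0.53 (SE 0.17, adjusted p = 0.0369). The groups overlapped, and in each the libraries numbered 18 to 23 were higher than those numbered 1 to 4. With that run of numbers as a covariate the log2 fold change was 0.29 (adjusted p = 0.126), and leaving out any of 0001, 0002, 0003, 0020, 0021 or 0023 also lost the call (adjusted p = 0.0864 to 0.113). Of the cell type markers, 3 of 8 of border-associated macrophages were called lower in Slc11a2KD APP/PS1, with sums of 314 to 542 CPM in Slc11a2KD WT and 145 to 232 CPM in Slc11a2KD APP/PS1. Of 6 microglial markers 5 were called lower, with sums of 30030 to 38014 and 24511 to 31014 CPM. Of 8 dendritic cell markers 2 were called lower, and of 7 B cell markers analysed 1, while none of 4 monocyte and of 8 choroid plexus markers was called and 8 of 8 genes of disease-associated microglia were called higher. Their part in the result was not tested.

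For the chains the spread within each Slc11a2KD group was wide. H2-Aa stood at 128, 94.0, 130.1, 713 and 543 CPM in Slc11a2KD WT and at 60.0, 119, 245, 167 and 609 CPM in Slc11a2KD APP/PS1, in the same library order. The highest libraries of both groups came from the numbers 18 to 23, and the groups overlapped over most of their range. The log2 fold change was -0.42 for H2-Aa (95% interval -1.59 to 0.74), -0.29 for H2-Ab1 (-1.27 to 0.69), -0.63 for H2-Eb1 (-1.83 to 0.58) and -0.65 for Cd74 (-1.46 to 0.17). H2-DMa was at 0.05 (-0.44 to 0.53) and Ciita at -1.27 (-3.10 to 0.56). None of these 6 was called (adjusted p = 0.306 to 0.932).

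Whether the genotype difference itself differed between treatments was tested as the interaction of knockdown and APP/PS1. None of 7 members was called, with 0% of all genes called in edgeR, although 1703 of 18759 genes and 3 members had an unadjusted p under 0.05, and DESeq2 called 25 genes, none a member. The genotype difference was less negative in Slc11a2KD than in Control mice by 1.80 for H2-Aa (95% interval 0.21 to 3.39), 1.46 for H2-Ab1 and 2.04 for H2-Eb1 on the log2 scale, each with an adjusted p of 0.544. For Cd74 the value was 0.98 (adjusted p = 0.548), and the smallest were those of H2-DMa (0.32) and H2-DMb1 (0.39). Without Slc11a2KD APP/PS1 0023 the 3 chains were at 1.11, 0.91 and 1.28, and with 0010 kept at 0.78, 0.60 and 0.93.

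The effect of the knockdown was asked first in WT mice. No member was called between Slc11a2KD WT and Control WT, where edgeR called 0% of all genes, 1110 genes and no member had an unadjusted p under 0.05, and DESeq2 called 10 genes, none a member. H2-Aa had a log2 fold change of -0.09 (95% interval -1.20 to 1.03), H2-Ab1 -0.10 and H2-Eb1 -0.08. These values moved with the libraries used: with the run of numbers as a covariate they were at -1.51, -1.23 and -1.37, and without the 8 Ttr-high libraries at -1.15, -0.89 and -0.79, none called. Cd74 stood at 136 CPM (median of 5) in Slc11a2KD WT and 158 CPM (median of 6) in Control WT, with a log2 fold change of -0.54 (-1.32 to 0.24). H2-DMb1 was at -0.04 (-0.36 to 0.28), H2-DMa at -0.10 and Ciita at -0.67. Ciita had 0 counts in Slc11a2KD WT 0022, which at that depth allows up to 0.0713 CPM, and 3.73 CPM in 0019.

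In APP/PS1 mice the knockdown comparison gave no call either, with 0% of all genes called in edgeR, 3862 genes and 4 members at an unadjusted p under 0.05. H2-Aa, at 60.0 to 609 CPM in Slc11a2KD APP/PS1 and 33.2 to 164 CPM in Control APP/PS1, had a log2 fold change of 1.71 (SE 0.57, adjusted p = 0.205). H2-Ab1 was at 1.35 (SE 0.48) and H2-Eb1 at 1.96 (SE 0.60), with the same adjusted p. H2-DMb1 was at 0.35 (adjusted p = 0.235), Cd74 at 0.44, Ciita at 0.36 and H2-DMa at 0.21. The choroid plexus marker sum was 1.30 to 5.41 CPM in Control APP/PS1 and 2.30 to 484 CPM in Slc11a2KD APP/PS1. In the same order, the microglial sum was 22733 to 26563 and 24511 to 31014 CPM, and that of border-associated macrophages 96.0 to 214 and 145 to 232 CPM. The part of these markers was not tested. The chains fell to 1.01, 0.79 and 1.19 without library 0023 and to 0.70, 0.50 and 0.85 with 0010 kept. DESeq2 called 580 genes here, of which H2-Eb1 was the only member (2.02, adjusted p = 0.0495). This comparison shares Control APP/PS1 with the first, and the sign of the chains turned in fits that rest largely on library 0004. Without library 0004, the only Slc11a2KD APP/PS1 library outside the numbers 18 to 23, 3069 of 18700 genes were called (16.4%), with the 3 chains among them (1.96 for H2-Aa, 1.57 for H2-Ab1 and 2.22 for H2-Eb1, adjusted p = 0.0209 to 0.0325). With the run of numbers as a covariate H2-Aa was at -0.37, H2-Ab1 at -0.29 and H2-Eb1 at -0.12, and without the 8 Ttr-high libraries, which leaves 0004 alone in its group, they were at -0.30, -0.10 and -0.37. In that last fit the lone library is assumed to vary like the other groups. No Control library is numbered 18 to 23, so the covariate fit also rests largely on 0004. It cannot separate the run from the treatment.

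The chains and Cd74 varied more from library to library than most genes. The coefficient of variation (CV, the SD as a percent of the mean) of H2-Aa was 64.2% in Control WT, 62.9% in Control APP/PS1, 89.0% in Slc11a2KD WT and 90.5% in Slc11a2KD APP/PS1. Among the 11879 to 11888 genes with a mean of at least 1 CPM, H2-Aa, H2-Ab1, H2-Eb1 and Cd74 lay at percentiles 86.6 to 98.5 of CV in the 4 groups, where the median gene had a CV of 16.7% to 28.7%. In Control APP/PS1 the spread of the chains rested on library 0013, without which the CV was 25.0% for H2-Aa, 16.7% for H2-Ab1 and 22.5% for H2-Eb1, while that of Cd74 was 39.7% with 0013 and 34.1% without (n = 5, an alternative chosen after seeing the data). H2-DMb1 had a CV of 12.5% in Control WT, 8.91% in Control APP/PS1, 32.7% in Slc11a2KD WT and 19.2% in Slc11a2KD APP/PS1, at percentiles 28.8, 14.7, 60.7 and 28.4, and H2-DMa lay between percentiles 15.3 and 75.6.

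Much of the spread in Slc11a2KD mice followed the run of library numbers. Among the 10 Slc11a2KD libraries, 4 of 7 members were called higher in the 6 libraries numbered 18 to 23 than in the 4 numbered 1 to 4, with genotype as a covariate, where 18.8% of the 17060 genes tested were called in either direction. H2-Aa lay between 60.0 and 130.1 CPM in the numbers 1 to 4 and between 119 and 713 CPM in 18 to 23, a log2 fold change of 2.36 (SE 0.40, adjusted p = 0.00848). H2-Ab1 was at 1.92 (SE 0.34, adjusted p = 0.00873) and H2-Eb1 at 2.31 (SE 0.43, adjusted p = 0.00914).

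H2-DMb1 rose less, by 0.73 on the log2 scale (SE 0.13, adjusted p = 0.00873). Its ranges, at 93.8 to 134 CPM and 161 to 218 CPM, did not overlap, as for 17.4% of all genes, while those of the other members did. Ranges take no account of genotype, and numbers 1 to 4 are mostly WT while 18 to 23 are mostly APP/PS1. Cd74 (0.87, adjusted p = 0.101), H2-DMa (0.54, adjusted p = 0.0774) and Ciita (1.00, adjusted p = 0.631) were not called. DESeq2, which called 26.1% of all genes here, also called H2-DMa (0.56, adjusted p = 0.0311). Without library 0021, 3445 of 16818 genes were called (20.5%) and 6 members, Cd74 and H2-DMa as well. Without 0004 the call of H2-Eb1 was lost (2.16, adjusted p = 0.0576), and 191 of 16737 genes were called (1.14%). Without 0022 that of H2-DMb1 was lost (0.63, adjusted p = 0.0604), and 120 of 16790 genes were called (0.715%). All 6 libraries numbered 18 to 23 had at least 50 CPM of Ttr and none of the 4 numbered 1 to 4 did. Of 8 choroid plexus epithelium markers, 7 were called higher in 18 to 23, while of 8 border-associated macrophage markers 2 were called higher and 1 lower. What the library numbers stand for is not given in the labels, and the part of choroid plexus RNA in this difference was not tested.

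The members were then compared with each other over libraries, after the mean of each group was taken off the log2 CPM. Over the 22 libraries H2-Aa had a Pearson r of 0.984 with H2-Ab1, 0.980 with H2-Eb1, 0.836 with Cd74, 0.731 with H2-DMb1, 0.335 with H2-DMa and 0.290 with Ciita. The lowest value of all pairs was that of H2-DMa and Ciita, at -0.177. These are descriptions over libraries that share depth and dissection, with Ciita close to its detection limit. Outside the members, the genes most like the mean of H2-Aa, H2-Ab1, H2-Eb1 and Cd74 by the same measure, of 11881 genes compared, were Abca4 (r = 0.806), Mgl2 (0.793), Tecr (0.766), Lbp (0.764) and Rab3d (0.764). The 5 did not all share the chains' genotype difference. Mgl2, a lectin of macrophages and dendritic cells, averaged 23.7 ± 11.7 CPM in Control WT and 3.63 ± 1.49 in Control APP/PS1 (log2 fold change -2.71, adjusted p = 0.000139). Rab3d and Tecr were higher in Control APP/PS1 (1.24, adjusted p = 1.45e-05, and 0.38, adjusted p = 0.0161). Lbp reached 18.1 CPM in Control WT 0012, 8.45 in 0015 and 10.1 in Slc11a2KD WT 0019, all Ttr-high, and was at most 0.420 CPM in every library that was not, and Abca4 was at 7.33, 7.30 and 2.78 CPM in the same 3 libraries and at most 0.812 CPM in those that were not Ttr-high.

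**Figure D3:**
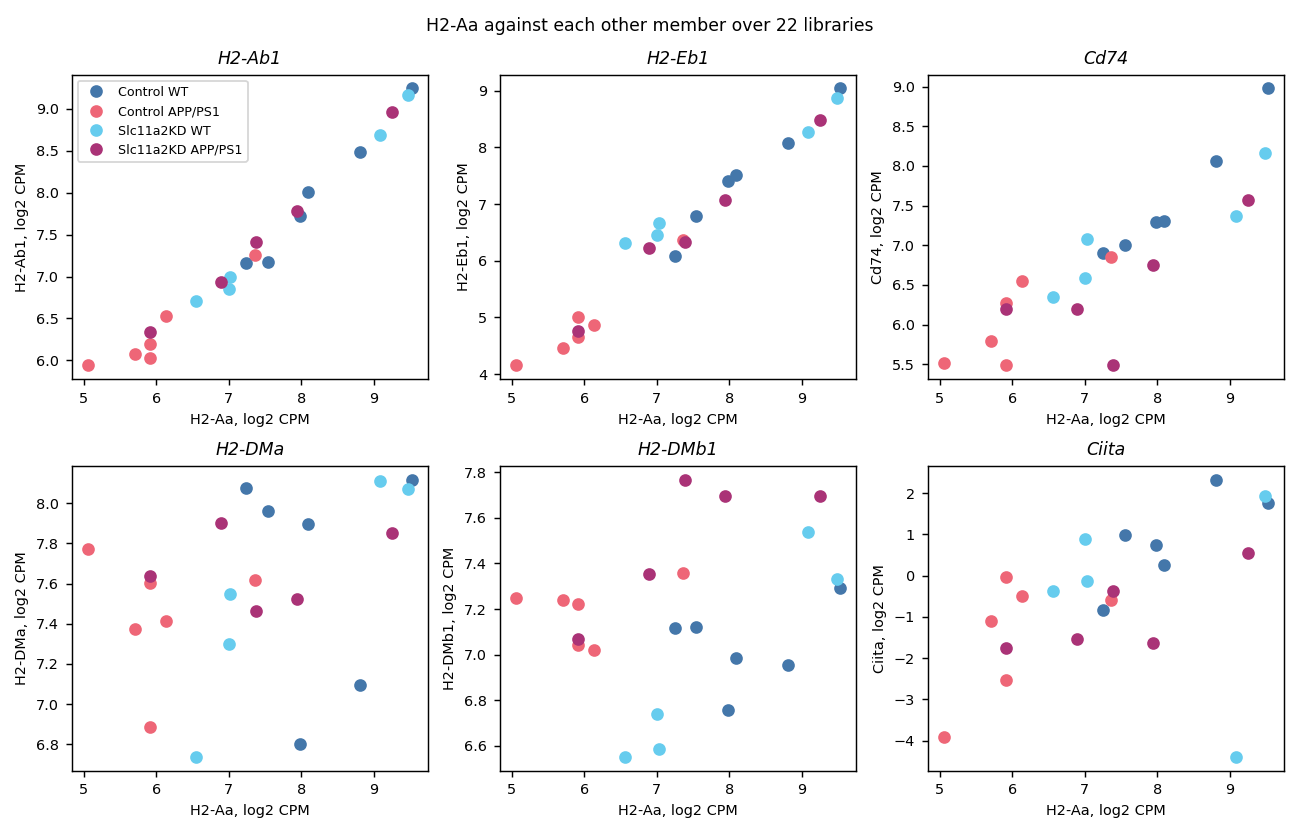
Each panel plots the log2 CPM of H2-Aa against that of 1 other member, with 1 point per library of the 22 and 1 colour per group. H2-Ab1 and H2-Eb1 fall along a line through all groups, H2-DMa and H2-DMb1 scatter, and the Slc11a2KD WT library with 0 counts of Ciita stands apart in the last panel.

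Relations of H2-Aa were also tested within genotype, 13 with the other members and marker sums in 11 WT libraries and the same 13 in 11 APP/PS1 libraries, with p-values from 100000 permutations adjusted over the 26. Each genotype pools Control and Slc11a2KD libraries, and the permutations were not kept within treatment. These p-values therefore also take in differences between the treatments. By Pearson's r 11 passed, by Spearman's rho 8. In WT libraries H2-Aa followed H2-Ab1 (r = 0.993, rho = 1, raw permutation p = 1e-05 for both, the smallest the permutations can give, adjusted p = 6.5e-05 and 0.00013) and Cd74 (r = 0.900, rho = 0.964, adjusted permutation p = 6.5e-05 and 0.000173). Without the 2 libraries farthest from the median of H2-Aa, r was 0.988 and 0.860. In APP/PS1 libraries Cd74 was less closely tied to H2-Aa (r = 0.740, raw permutation p = 0.00834, adjusted 0.0241, and rho = 0.527, adjusted permutation p = 0.186), and r fell to 0.358 without the 2 libraries farthest from the median, so the value over all 11 rests on those. Within the 6 Control APP/PS1 libraries r was 0.820. Whether the 2 genotypes differ in it was not tested.

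H2-DMb1 followed H2-Aa in WT (r = 0.790, adjusted permutation p = 0.0171) and by r in APP/PS1 libraries (r = 0.798, adjusted permutation p = 0.0101, but rho = 0.682, adjusted 0.0714). Within the 6 Control libraries of each genotype r was 0.295 and 0.296, and with 0010 kept it was 0.844 in the 7 of Control APP/PS1, so that value rests on 0010. For H2-Ab1 the Control libraries alone gave r = 0.990 in WT and 0.945 in APP/PS1. The Slc11a2KD runs hold at most 4 libraries of a genotype, too few for a value.

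Of the marker sums, that of choroid plexus epithelium followed H2-Aa in APP/PS1 libraries (r = 0.860, rho = 0.882, raw permutation p = 0.00093 and 0.00083, adjusted 0.00403 and 0.0036), and r was 0.739 without the 2 farthest libraries. Within the 6 Control APP/PS1 libraries, where the sum was only 1.30 to 5.41 CPM, r was 0.955. With 0010 kept, r over the APP/PS1 libraries was 0.699 and rho 0.860 (adjusted permutation p = 0.0299 and 0.00316). In WT libraries r was 0.557 and rho 0.418 (raw permutation p = 0.0782 and 0.2, adjusted 0.145 and 0.307), and Control WT 0009 had 448 CPM of H2-Aa with a choroid sum of 1.09 CPM. The sum of border-associated macrophage markers gave r = 0.728 in APP/PS1 (rho = 0.755, adjusted permutation p = 0.0258 and 0.0313) and r = 0.0572 in WT (adjusted permutation p = 0.866). With 0010 kept the APP/PS1 relation no longer passed (r = 0.632, rho = 0.657, adjusted permutation p = 0.0526 and 0.0558). The sum of microglial markers gave r = 0.709 in APP/PS1 (adjusted permutation p = 0.0316, but rho = 0.636, adjusted 0.0966). It was -0.195 within the 6 Control APP/PS1 libraries and 0.693 with 0010 kept. The B cell, dendritic cell and monocyte sums did not pass in either genotype (r = -0.502 to 0.476), but with 0010 kept the monocyte sum passed by r in APP/PS1 (r = 0.665, adjusted permutation p = 0.038, rho = 0.238, adjusted 0.528). The B cell sum was 576 CPM in Slc11a2KD APP/PS1 0023, the library of that group with the most H2-Aa, where the group's median was 319 CPM.

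**Figure D4:**
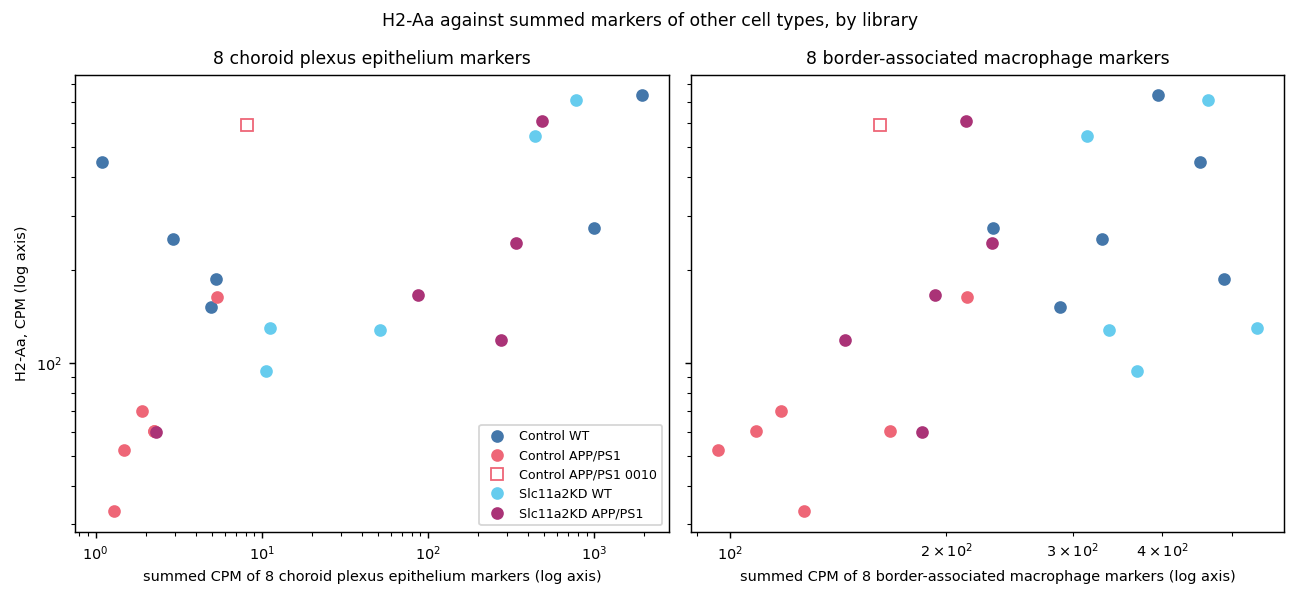
H2-Aa in CPM is plotted against the summed CPM of 8 choroid plexus epithelium markers and of 8 border-associated macrophage markers, both on log axes, with 1 point per library and an open square for Control APP/PS1 0010. In APP/PS1 libraries with a choroid sum of at most 5.41 CPM H2-Aa lies at 33.2 to 70.0 CPM, apart from 0013 at 164 CPM, which is above Slc11a2KD APP/PS1 0018 (119 CPM at a choroid sum of 274 CPM), and Control WT 0009 and library 0010 are high in H2-Aa at choroid sums of 1.09 and 8.10 CPM.

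Around the members, 30 genes of the class II pathway were listed, of which 29 were tested, and 9 were called in the Control comparison, 3 higher and 6 lower in APP/PS1, where 10.5% of all genes were called. Without Control WT 0012 and 0015, where 6.91% of all genes were called, 2 were called higher and 3 lower. The cathepsins, which degrade the invariant chain, went opposite ways, with Ctsl at 0.81 (SE 0.13, adjusted p = 0.000145) and Ctss at -0.57 (SE 0.18, adjusted p = 0.0435), and the asparaginyl endopeptidase Lgmn was at -0.36. The receptor subunit Ifngr1, which binds interferon gamma, was at -0.82 (SE 0.10, adjusted p = 4.78e-06), and the myeloid factor Irf8 at 0.36. The co-stimulatory ligand Cd80 was at -0.64. Of the H2-O subunits, which restrain H2-DM, H2-Oa was at -0.40 and H2-Ob at 0.50. The list's median log2 fold change was -0.15, against -0.02 over all genes.

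In Slc11a2KD mice 11 of the 29 were called between genotypes, 3 higher and 8 lower in APP/PS1, where 16.2% of all genes were called. With the run of numbers as a covariate, where 9.45% of all genes were called, 3 were called higher and 4 lower. Ctsl (1.358), Ctss (-0.90), Ifngr1 (-0.80) and H2-Ob (0.54) had the signs they had in Control mice. The class II transcription factors Rfx5 (-0.68), Nfya (-0.72) and Creb1 (-0.45) and the ubiquitin ligase Marchf1 (-0.82), which takes class II off the surface, were called lower. With the run of numbers as a covariate these 4 were at -0.43, -0.30, -0.27 and -0.52 and none was called (adjusted p = 0.102 to 0.302), while Ctsl (1.34), Ctss (-0.66), Ifngr1 (-0.82) and H2-Ob (0.51) were still called. The counts fell with those of all genes to 3 higher and 4 lower without 0002 (10.6% of all genes called) or without 0003 (10.8%) and to 3 higher and 3 lower without 0021 (10.7%), and to 2 higher and 1 lower with only the compared groups in the fit (6.1% of all genes called) and 1 higher and 0 lower without the 8 Ttr-high libraries (2.04%). Of these, Rfx5, Nfya, Creb1 and Marchf1 were not called in Control mice, and whether the 2 differences differ gave no call in the interaction for any of the 29. Between Slc11a2KD and Control mice edgeR called 0% of all genes in either genotype, and so none of the 29, of which 1 in WT and 4 in APP/PS1 had an unadjusted p under 0.05, and DESeq2 called none of them. Without 0004, where 16.4% of all genes were called in APP/PS1, 1 of the 29 was called higher and 6 lower.

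Between the runs of library numbers 9 of the 29 were called, 2 higher and 7 lower in 18 to 23, where 18.8% of all genes were called. These counts fell to 1 higher and 5 lower without 0001 (17.3% of all genes called), to 1 higher and 2 lower without 0002 (12.3%) or without 0003 (12.1%), to 1 higher and 0 lower without 0004 (1.14%) and to 0 called without 0022 (0.715%). Cd40, the receptor through which T cells license antigen-presenting cells, was higher by 1.99 (SE 0.49, adjusted p = 0.0158), and H2-DMb2, the neighbour of H2-DMb1, was higher by 1.05. Of the kinases that signal from the interferon gamma receptor, Jak1 was at -1.14 and Jak2 at -1.01. Nfya (-0.91), Marchf1 (-0.82) and Ctss (-0.63) were lower too. Of these named genes, Cd40 and H2-DMb2 had the sign of the chains between the runs, and Jak1, Jak2, Nfya, Marchf1 and Ctss the opposite sign. The same 10 libraries lie behind each value.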

How the data were processed

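The authors trimmed paired-end reads with Trim Galore 0.6.7, aligned them with STAR to mm39 and deposited whole-number counts per gene, with no normalisation. Per the submitters' processing notes they used DESeq2 1.36.0 for their tests. A second deposited table of normalised values was not used here. From the counts, all 4 groups (22 libraries) were fitted together with edgeR 4.0.16 (R 4.3.3; TMM scaling, quasi-likelihood test, two-sided, Benjamini-Hochberg over all 18759 genes with at least 5 counts in 3 libraries, threshold 0.05). CPM use TMM-scaled library sizes, and log2 CPM a prior count of 2. Library 0010 was scaled in a separate fit of all 23. Library numbers are unique to each sample and the labels record no litters or pairs, so no paired fit was made. The study gives the replicates as biological, and the labels do not tie libraries to animals, so p-values measure the spread between libraries. Intervals on fold changes are 95% and derive from log2 fold change divided by the square root of F. Both tools were tested on counts simulated for the Control comparison, with the spread that edgeR estimated. Of 200 changes of 1.5 on the log2 scale, edgeR recovered 110 with 2 false calls, and DESeq2 120 with 29. Calls that DESeq2 alone makes are therefore taken as less certain, although the other comparisons were not simulated. A gene that edgeR does not call can still differ. All 7 members were named, with up to 8 pathway genes per comparison by size and the 5 most alike genes. The members and all lists were chosen with earlier results of these data known. Alternatives were DESeq2 1.42.0, other scaling and filters, 0010 kept, single libraries left out, a limit of 1 on the log2 fold change, only the compared groups, library numbers as a covariate, and removal of Ttr-high libraries (all 8 as an alternative chosen after seeing the data, as were all alternatives for the pathway list). H2-Ea and Cd3e were not analysed here. The values of 1 listed pathway gene are not reported here. Motifs, positions and sequences come from GRCm39 with GENCODE M39. Limits for 0 counts cover counting error only, and intervals on fold changes the spread between libraries.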

Additional observations from a re-analysis of the deposited data

Results flagged for a closer look

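In 35 groups of values examined, 1 for each member and group plus Control APP/PS1 with 0010 added, 8 held a library that stood far from the others. Chance alone gives about 1 in 20 independent groups of normally distributed values, a rate that need not hold for CPM. These groups are also not independent, since 5 of the 8 are 0010 and the other 3 are 0013 in chains that varied together. Library 0010 had already been set aside as the study's outlier, so its place here was partly set in advance. Within the 6 Control APP/PS1 libraries, 0013 was the high library for H2-Aa (164 CPM), H2-Ab1 (153 CPM) and H2-Eb1 (82.6 CPM). Its sum of border-associated macrophage markers, 214 CPM, and of choroid plexus markers, 5.41 CPM, were also the highest of these 6, and their part was not tested.

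Control APP/PS1 0010, which the tests leave out, was the highest of the 7 for all members, and stood far above the 6 others in H2-Aa (592 CPM), H2-Ab1 (564 CPM), H2-Eb1 (314 CPM), H2-DMb1 (224 CPM) and Ciita (2.28 CPM). It was at 196 CPM in Cd74 and 253 CPM in H2-DMa, where the highest of the 6 others were at 115 and 219 CPM. Its H2-DMb1, at 224 CPM, was also above the highest Control WT library, at 157 CPM. Its B cell marker sum, 865 CPM, lay above the 324 to 407 CPM of the 6 others, and its monocyte marker sum, 112 CPM, above their 8.91 to 28.9 CPM, and their part was not tested. For the chains and Ciita, 0010 lay within the range of Control WT.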

How the results depend on the processing

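Of 352 values of single members under alternatives other than leaving out 1 library, 318 kept their direction and their side of the threshold, 19 changed sign, 11 were no longer called and 4 became called. With 0010 kept, the called members fell from 4 to 1 in the Control genotype comparison (11.3% of all genes called, against 10.5%) and from 1 to 0 in the Slc11a2KD genotype comparison (12.7% of all genes called, against 16.2%), and Ciita between Slc11a2KD APP/PS1 and Control APP/PS1 was at -0.29. Without Control WT 0012 and 0015, 1 member was called between the Control genotypes (6.91% of all genes called), and between Slc11a2KD WT and Control WT the signs turned to 0.31 for H2-Aa, 0.32 for H2-Ab1, 0.43 for H2-Eb1, 0.056 for H2-DMa and 0.014 for H2-DMb1. The Slc11a2KD genotype count also fell to 0 with a limit of 1 on the log2 fold change (5.89% of all genes called), with only the compared groups (6.1%), with the library number covariate (9.45%, H2-DMa then at -0.097) and without the 8 Ttr-high libraries (2.04%). Between Slc11a2KD APP/PS1 and Control APP/PS1, DESeq2 called 1 member, and 3.09% of all genes. With the library number covariate, a fit that cannot separate run from treatment in this comparison, H2-Aa was at -0.37, H2-Ab1 -0.29, H2-Eb1 -0.12, Cd74 -0.25, H2-DMa -0.19, H2-DMb1 -0.24 and Ciita -0.50. Without the 8 Ttr-high libraries H2-Aa was at -0.30, H2-Ab1 -0.097, H2-Eb1 -0.37, H2-DMb1 -0.14 and Ciita -0.87. The causes were not tested.

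With 1 library left out in turn, the called members ranged from 3 to 4 between the Control genotypes, 0 to 1 between the Slc11a2KD genotypes, 0 to 3 between Slc11a2KD and Control APP/PS1 (3 without 0004) and 3 to 6 between the runs (6 without 0021), and the other comparisons stayed at 0. The shares of all genes called ranged, in the same order, from 8.35% to 10.5%, 10.6% to 25.6%, 0% to 16.4% and 0.715% to 24%. Signs turned between Slc11a2KD WT and Control WT for H2-Aa (-0.63 to 0.29), H2-Ab1 (-0.61 to 0.26), H2-Eb1 (-0.63 to 0.38), H2-DMa (-0.26 to 0.057) and H2-DMb1 (-0.22 to 0.056), between the Slc11a2KD genotypes for H2-Aa (-1.12 to 0.095), H2-Ab1 (-0.85 to 0.20) and H2-DMa (-0.11 to 0.19), between the APP/PS1 groups for Ciita (-0.25 to 0.67), and between the runs for Ciita (-2.19 to 1.57). With 0010 kept, 12 of 26 relations of H2-Aa passed by r in place of 11: in APP/PS1 Ciita (adjusted permutation p = 0.0211) and the monocyte sum (0.038) were gained and the border-associated macrophage sum (0.0526) was lost. By rho 10 passed in place of 8. In APP/PS1 H2-DMb1 (adjusted permutation p = 0.0245), Ciita (0.0483) and the microglial sum (0.0483) were gained, and the border-associated macrophage sum (0.0558) was lost. Ciita did not reach 10 counts in every library, so that filter gives it no value, and its depth limits any statement on it.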
